A study of Mus musculus with 2 samples.

Results

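The cells described here are mature Ly6C-low monocytes of mouse ankle synovium in which no Ly6c2 transcript was counted. They were chosen by their RNA, as unique molecular identifiers (UMIs, 1 per captured transcript molecule) counted in each cell. A cell was taken when Treml4, Ace, Adgre4 and Eno3 together had at least 4 UMIs and Ly6c2 had 0. Vsig4 had to be under 5 UMIs, S100a8 under 100 and Top2a plus Mki67 under 3, which sets limits on macrophage, neutrophil and cell cycle transcripts. The rule took 106 of 1637 filtered cells (6.48%, exact binomial 95% interval 5.33 to 7.78) at steady state and 64 of 1210 (5.29%, 4.10 to 6.70) at day 7, 170 of 2847 in all.

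The study measured RNA and surface antibodies in the same single cells (CITE-seq), with 1 library per group. Both groups were bone marrow chimeras, CD45.2 B6 mice that carried CD45.1 B6 donor marrow and whose ankles were shielded from the irradiation, so that cells of donor and host origin differ in their CD45 allele. The steady-state group had no treatment, and the day 7 group was taken 7 days after a 200 µL retro-orbital injection of clodronate liposomes, an agent that depletes cells able to engulf it. Live synovial cells were sorted as CD45+ CD11b+. By its description the gate left out neutrophils (Ly6G, CD177), eosinophils (SiglecF) and cells with surface CD64, Ly6C or MHC class II. Class II and Ly6C below are read within a gate set on those antigens, though cells stained for each were present in the libraries. The number, age and sex of the animals behind each library are not given in the sources used here. With 1 library per group no difference was tested. Intervals on shares and ratios cover counting error only, and a difference between libraries cannot be told apart from one between the groups.

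Ly6C-low monocytes, also called nonclassical or patrolling monocytes, crawl along the inner wall of small vessels with the integrin LFA-1 and clear debris there. In blood they arise largely from Ly6C-high classical monocytes, under the transcription factors Nr4a1 and C/EBPβ, and as they mature they lose Ly6C and CCR2. Cells of related phenotype have been described in the synovium, where they are studied for their part in arthritis.

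The filtered libraries held 17169755 and 10983657 UMIs over 32285 genes, and no cell barcode was shared between them. The label was first checked cell by cell. In 17 of the 106 steady-state cells the fibroblast list (collagens, Prg4, Dcn, Comp and Bgn) summed to between 114 and 2123 UMIs, while every other cell chosen in either library had at most 2. These 17 cells had Ace, which is also made outside the monocyte lineage, at 4 to 11 UMIs but no Treml4 and no Ear2, and 15 of them entered on Ace alone. The antibody against CD11b, the antigen the sort was gated on, gave under 10 counts in 16 of the 17 (median 2). A further steady-state cell with 3 CD11b counts held 14 UMIs of Eno3 beside 85 of Acta1 and 35 of Ckm, which are skeletal muscle transcripts, and 3 cells carried at least 20 counts of both CD45 alleles. No day 7 cell met any of these conditions. The CD45 condition was harder to reach at day 7, where the median CD45.1 count of the chosen cells was 16, against 70 at steady state.

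**Figure D1:**
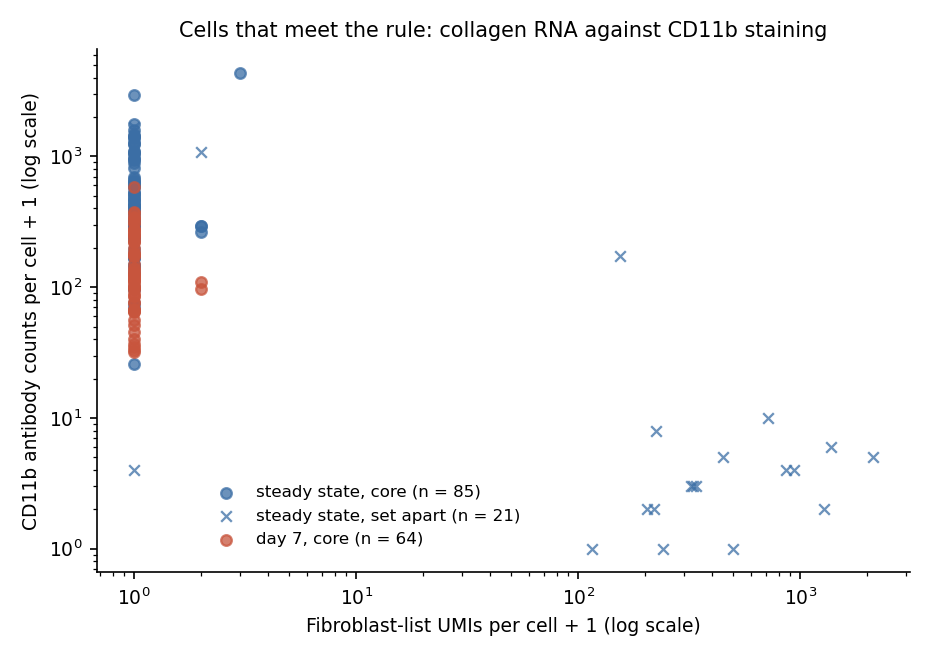
Fibroblast-list UMIs against CD11b antibody counts in each of the 170 chosen cells, by library, both axes as value plus 1 on a log scale. Circles are the 149 core cells and crosses the 21 steady-state cells set apart; 17 crosses lie at 114 UMIs or more, and all circles lie at 2 or fewer.

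These 21 steady-state cells were set apart after the data had been seen, which left 85 core cells at steady state (5.19%, 4.17 to 6.38) and the same 64 at day 7. Values below are of the core cells. The value over all chosen cells stands beside it for antibody medians, and for genes whose log2 ratio of at least 2-fold between the libraries is printed, where it differs by more than 1.5 times. Over 236 list genes, 29 day 7 to steady-state ratios moved by more than 1.5-fold between the 2 sets of cells, and 4 of the genes at least 2-fold apart in the core cells had the opposite sign over all chosen cells. In the core cells the markers of stromal, vascular and lymphoid cells were near 0. The fibroblast list summed to 7.43 and 4.88 counts per 1000000 UMIs (CPM) at steady state and day 7. The endothelial list was at 0 in both libraries and the platelet list at 1.49 and 0 CPM. Of the 9 T and NK cell genes 8 were at 0 in each library, and the B cell list summed to 8.91 and 12.2 CPM. The lists of other myeloid cells were higher. The 15 macrophage genes summed to 612 and 205 CPM, with 2 and 8 of them at 0, the 11 neutrophil genes to 86.1 and 212 CPM and the 9 cDC2 genes to 175 and 124 CPM, beside 18400 and 17660 CPM for the 26 mature Ly6C-low markers.

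The core cells had a median of 6846 UMIs and 2114 genes at steady state and 6516.5 UMIs and 2283 genes at day 7. They were shallower than the other filtered cells, whose medians were 9720 and 8410 UMIs. The most similar cells were those that met the same rule except that they had Ly6c2, called counterparts here, with 60 cells at steady state (3.67%) and 83 at day 7 (6.86%) and medians of 10031.5 and 9492 UMIs. Ly6c2-high monocytes, with at least 5 Ly6c2 UMIs and a marker sum under 4, numbered 115 (7.03%) and 368 (30.4%). Macrophages with at least 5 Vsig4 UMIs numbered 406 (24.8%) and 53 (4.38%). Since a count of 0 is reached more easily in a shallow cell, part of the line between the core cells and their counterparts may lie in depth. With the rule applied to cells thinned to 3000 UMIs, the median log2 ratio of chosen cells over counterparts was -0.41 at steady state and -0.18 at day 7. On full counts it was -0.003 and 0.014 for all chosen cells. The part of depth in this line was not tested.

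Among all cells that reached the marker minimum, those without Ly6c2 made up 106 of 166 (63.9%, 56.1 to 71.2) at steady state and 64 of 147 (43.5%, 35.4 to 52.0) at day 7. Without the 21 cells set apart and by the same conditions in the counterparts, the steady-state share was 85 of 140 (60.7%). At the edge of the rule, 13 steady-state and 6 day 7 cells without Ly6c2 had a marker sum of 3, and 10 and 8 had a sum of 4. These edge counts include cells with collagen RNA, which were 5 of the 10 steady-state cells with a sum of 4. Ear2, Gngt2 and Pou2f2, which the rule did not use, were summed over the same cells. Their medians were 3 and 7 UMIs just outside the marker minimum and 2.5 and 14.5 just inside it, so the 2.5 is not a value of core cells. Of the cells over the minimum, 13 and 21 had exactly 1 Ly6c2 UMI, with medians of 31 and 17 UMIs for those 3 genes. The limits on Vsig4, S100a8 and cell cycle transcripts left out no cell.

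The 4 genes that chose the cells are given as a description. Ace, angiotensin-converting enzyme, was at 643 CPM at steady state and 576 CPM at day 7, and was counted in 83 of 85 and 55 of 64 cells. Adgre4, an adhesion receptor, was at 356 and 615 CPM, and Treml4, a receptor that binds dying cells, at 250 and 346 CPM. Eno3, an enolase, was at 466 and 324 CPM. All 4 genes were found together in 52 of 85 and 34 of 64 core cells.

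Donor marrow had supplied nearly all of these cells in both groups. Cells were assigned by the 2 CD45 antibodies when these had at least 10 counts together, as donor at 80% CD45.1 or more and as host at 20% or less. All 85 core cells were donor cells at steady state (100%, 95.8 to 100), and 53 of 55 assigned cells were at day 7 (96.4%, 87.5 to 99.6). Cells that stained for both alleles had been set apart before. Over all chosen cells at steady state 86 of 87 assigned cells were donor cells. At day 7 9 cells stayed unassigned, and the median CD45.1 count was 81 at steady state and 16 at day 7. The counterparts at steady state were donor cells in 54 of 55 assigned cells. None of the 372 and 52 assigned Vsig4 macrophages was a donor cell, and the other filtered cells at steady state lay between, at 575 of 1348 (42.7%).

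Surface protein was read through antibodies that each carry a 15-base DNA oligo, and the oligo is what is sequenced. The 8 oligos behind the results that follow are printed to show what was counted. Capitals are not used, as the whole oligo is the tag. All 92 oligos in the panel differ from each other, by at least 4 bases, and these 8 by at least 7, so a single sequencing error does not turn one into another.
Ly6C: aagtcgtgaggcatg
CD11b: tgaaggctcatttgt
CD115: ttccgttgttgtgag
CD102: gatattcagtgcgac
CD43: ttggagggttgtgct
CD11a: agagtctccctttag
CD45.1: cctatggacttggac
CD45.2: caccgtcattcaacc

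Core cells stained weakly for Ly6C, the classical monocyte antigen, and strongly for CD43 and CD11a, which mark nonclassical monocytes. The median Ly6C count was 4 at steady state (range 0 to 61) and 12 at day 7 (2 to 64). The counterparts had medians of 44.5 and 38 and the Ly6c2-high monocytes 56 and 53.5, so core cells lay lower than both in each library, while Vsig4 macrophages had 1 and 3. Over all other filtered cells the medians were 2 and 31 for Ly6C, 361 and 115 for CD11b, 1 and 2 for CD115 and 2 and 9 for CD102. A Ly6C count of at least 10 was found in 20 of 85 core cells (23.5%, 15 to 34.0) at steady state and 41 of 64 (64.1%, 51.1 to 75.7) at day 7. None of these cells had a Ly6c2 UMI. The sort is described as leaving out Ly6C-positive cells, but Ly6C-stained cells were present after it. Among them were the Ly6c2-high monocytes, 115 cells at steady state and 368 at day 7. How completely the gate left out such cells was not tested. The Ly6C-stained cells were deeper than the rest, with medians of 10196 against 5423 UMIs at steady state and 7099 against 4448 at day 7. Their median UMIs of the classical list were 18 against 7 and 13 against 5, and of the mature list 181 against 118 and 118 against 91.

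CD11a, the LFA-1 chain encoded by Itgal, had medians of 149 and 83 counts in core cells, 202 and 60 in counterparts, 55 and 25 in Ly6c2-high monocytes and 1 and 1 in Vsig4 macrophages. CD43, encoded by Spn, had 298 and 132.5 in core cells, 296 and 118 in counterparts and 132 and 102 in Ly6c2-high monocytes. On both antigens core cells and counterparts lay above the Ly6c2-high monocytes in each library. CD102, encoded by Icam2, had medians of 18 (range 3 to 87) and 9 (2 to 47) in core cells, 30 and 12 in counterparts and 20 and 12 in Ly6c2-high monocytes, so it did not set the core cells above the other monocytes. It was near background in Vsig4 macrophages, at 1 and 1. CD115, the CSF1 receptor that monocytes need to survive, stained faintly at 2 and 5 counts (1 over all chosen cells at steady state) against 1 and 3 in counterparts and 3 and 2 in macrophages.

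CD11b, an integrin chain of all these cells, had a core median of 403 counts at steady state (range 25 to 4341) and 121 at day 7 (31 to 583), and the counterparts 570.5 and 188. The whole antibody signal was lower at day 7. The median total per core cell was 1146 at steady state and 567.5 at day 7, and in the other cells 1059 and 542. Scaled to 10000 antibody counts per cell, CD11b was at 3360 and 2252 and Ly6C at 33.3 and 183 (steady state, then day 7), which kept their directions. CD102 was at 133 and 156 on that scale, the opposite direction to its raw counts. The direction of a staining difference between the libraries therefore depends on the scale for CD102, and of 21 antibodies with a core median of at least 3 in either library, 12 were lower at day 7 as raw counts and 8 as scaled counts. On the scaled counts CD45.1 was at 704 and 249.

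**Figure D2:**
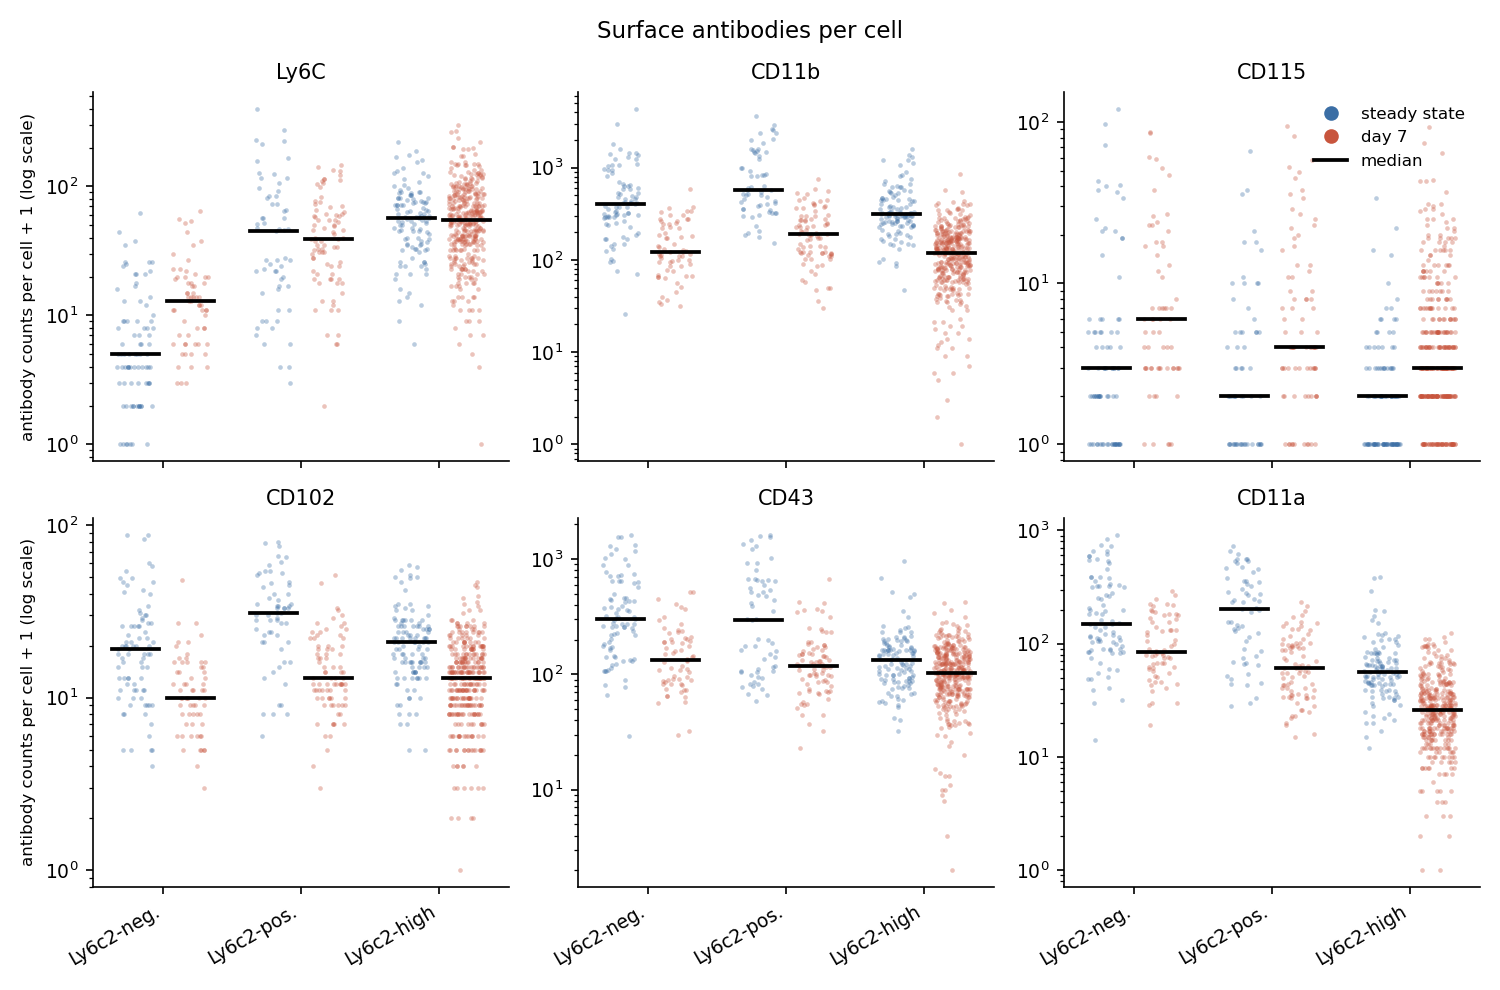
Raw antibody counts plus 1 per cell (log scale) for Ly6C, CD11b, CD115, CD102, CD43 and CD11a in core cells, counterparts and Ly6c2-high monocytes of each library, each point a cell and each bar a median. Core medians for Ly6C, 4 and 12, lie under those of both other sets, and the core median for CD11b is 403 at steady state and 121 at day 7.

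Core cells were also high in nonclassical monocyte transcripts that the rule did not use. Ear2, an eosinophil-associated ribonuclease family member, was at 606 CPM in core cells at steady state and 583 CPM at day 7, and was found in 91.8% and 78.1% of cells. Gngt2, a G protein gamma subunit, was at 1798 and 2107 CPM, and Pou2f2, a transcription factor, at 806 and 898 CPM. Against all other filtered cells of the same library the log2 ratios were 3.79 and 3.40 for Ear2, 3.82 and 3.00 for Gngt2 and 3.54 and 2.36 for Pou2f2. These cells were chosen by RNA of the same cells, so the ratios are descriptions.

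Of the 26 listed markers of mature Ly6C-low monocytes outside the rule, all at or above 20 CPM in one of the sets compared, 24 were at least 2-fold higher in core cells than in other cells at steady state (median log2 ratio 3.00) and 23 at day 7 (2.51), and none was 2-fold lower. Over all genes at that minimum, 9.33% were at least 2-fold higher and 19.2% lower at steady state (median -0.17), and 7.42% and 12.1% at day 7 (median -0.01). Over all chosen cells the steady-state shares were 11% and 13.2%. Cd300e, an activating receptor of the CD300 family, was at 111 and 97.6 CPM in core cells against 3.69 and 1.23 CPM in other cells, and Fabp4, a fatty acid carrier, at 302 and 244 CPM with log2 ratios of 4.68 and 5.12. S1pr5, the sphingosine receptor by which these monocytes leave the marrow, was at 117 and 68.3 CPM (4.67 and 4.10), and Pparg, a nuclear receptor, at 75.7 and 68.3 CPM (4.27 and 4.64). Itgal was at 762 and 1346 CPM (4.18 and 2.92) and Spn at 496 and 512 CPM (3.48 and 2.33). All of these genes were higher in core cells in both libraries.

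Among regulators, Nr4a1 was at 1442 and 1332 CPM in core cells with log2 ratios of 1.81 and 1.58 over other cells, and Cebpb at 4372 and 3497 CPM (1.78 and 1.03). Of the listed regulators past the minimum, 9 of 23 were at least 2-fold higher and 4 lower at steady state, and 7 and 3 of 22 at day 7. Over all genes 9.33% were higher and 19.2% lower at steady state, and 7.42% and 12.1% at day 7. Several genes of the survival and death list, which holds genes of both kinds, were also higher. Bcl2, which blocks cell death, was at 140 and 178 CPM against 37.4 and 28.2 in other cells, and its relatives Bcl2a1a and Bcl2a1d had log2 ratios of 3.18 and 3.26 and of 2.61 and 3.01. The Bcl2a1 genes are near-identical copies, so the split of reads between them is uncertain. Of the survival and death list 5 of 11 and 7 of 12 were at least 2-fold higher and 0 and 1 lower. These counts are not of survival genes alone.

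Of the receptors, Cx3cr1, the fractalkine receptor of patrolling monocytes, was at 382 and 446 CPM (log2 ratios over other cells 1.8 and 1.55). Csf1r was at 711 and 883 CPM, with ratios of -0.01 and 1.09, beside a Vsig4 macrophage share of 24.8% and 4.38% of filtered cells. Itgax, CD11c, was at 89.1 and 149 CPM (2.32 and 4.19) and Itga4 at 756 and 1219 CPM (2.16 and 2.04). MHC class I genes were higher at steady state in 4 of 10 and at day 7 in 3 of 10, with H2-K1 at 1.49 and 1.22. The shares of all genes at least 2-fold higher were 9.33% and 7.42%.

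Genes of macrophages and of dividing cells lay on the other side. C1qa, a complement component made by resident macrophages, was at 40.1 and 0 CPM in core cells against 2908 and 328 CPM in other cells, and Mrc1, the mannose receptor, at 11.9 and 0 against 400 and 82.9 CPM. Of the macrophage list 13 of 15 at steady state and 12 of 13 at day 7 were at least 2-fold lower (medians -5.07 and -3.79), as were 5 of 8 and 13 of 14 cell cycle genes. The shares of all genes lower were 19.2% and 12.1%. At least 1 UMI of the macrophage list was held by 73 of 85 core cells at steady state (median 2 UMIs) and 38 of 64 at day 7 (median 1). The highest values were 95 and 13 UMIs. At steady state 3 core cells had 10 UMIs or more and 2 had 50 or more, and at day 7 1 cell had 10 or more. C1qa was found in 20% of core cells at steady state, 21.7% of counterparts and 26.1% of Ly6c2-high monocytes, all of which should lack it, with median depths of 6846, 10031.5 and 9737 UMIs. The C1qa share in core cells lay below those of the deeper counterparts and Ly6c2-high monocytes. Of the 27 core C1qa UMIs at steady state 9 were in 1 cell. The part of free RNA in these values was not tested.

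Compared with their Ly6c2-positive counterparts, core cells were higher in mature markers and lower in classical ones. Above the 20 CPM minimum, 3.55% of all genes were at least 2-fold higher in core cells and 4.46% lower at steady state, and 4.64% and 6.08% at day 7 (medians 0.02 and 0.01). Over all chosen cells the steady-state shares were 10.2% and 3.94%. Of the 26 mature markers 6 were at least 2-fold higher at steady state (median 0.78) and 12 at day 7 (0.92), none was 2-fold lower, and 25 of 26 lay above 0 in each library. Fabp4 was at 98.8 and 32.7 CPM in counterparts against 302 and 244 in core cells, and Cd300e at 48.7 and 10.5 against 111 and 97.6. Fcgr4, the Fc receptor of nonclassical monocytes, was at 229 and 107 CPM in core cells against 94.8 and 33.8 in counterparts, and Cd36, a scavenger receptor, at 428 and 188 against 159 and 72.3. Both genes were higher in core cells in both libraries.

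Classical genes were lower in core cells than in counterparts, 5 of 10 at steady state and 6 of 11 at day 7 (medians -1.20 and -1.22). The shares of all genes lower were 4.46% and 6.08%. Ccr2, which brings classical monocytes out of the marrow and into inflamed tissue, was at 230 and 195 CPM in core cells, 682 and 455 in counterparts and 1088 and 1310 in Ly6c2-high monocytes, in the same order in each library. Vcan, a matrix proteoglycan of classical monocytes, was at 1.49 and 7.32 CPM in core cells against 17.1 and 128 CPM in counterparts. Fn1, fibronectin, was at 163 and 300 against 732 and 1048 CPM. Each of these 3 genes was lower in core cells in both libraries. Interferon-stimulated genes were lower in 6 of 12 and 7 of 9 (medians -0.96 and -1.21) and higher in 1 and 0. Isg15 was at 49.0 and 14.6 CPM in core cells against 128 and 67.7 in counterparts, and Irf7 at 53.5 and 26.8 against 203 and 71.2.

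Against Ly6c2-high monocytes the distance was wider. At steady state 9.65% of genes were at least 2-fold higher in core cells and 7.09% lower, and at day 7 8.12% and 9.46% (medians 0.06 and 0.00). Over all chosen cells the steady-state shares were 14.4% and 6.17%. Of the 26 mature markers 21 were at least 2-fold higher in each library (medians 2.80 and 2.96), and of the classical list 8 of 11 and 7 of 11 were lower (-2.24 and -2.15). Integrin and adhesion genes were higher in 8 of 15 and lower in 2 of 15 in each library. The interferon-stimulated list was lower in 10 of 15 and 9 of 11.

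At day 7 after clodronate the mature markers of the core cells lay mostly within 2-fold of steady state, while MHC class II, immediate early, heme response and matrix genes differed. Of 5695 genes at 20 CPM or more in either library, 459 (8.06%) were at least 2-fold higher at day 7 and 353 (6.2%) lower, with a median log2 ratio over all genes of 0.08. Over all chosen cells the shares were 7.33% and 13%. In counterparts the shares were 5.28% and 4.39%, and in Ly6c2-high monocytes 4.18% and 1.72%. Core cells are the smallest of these sets at day 7 and the ratios of genes with few counts spread more in a small set, so the shares are not ranked.

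Of the 26 mature markers 25 lay within 2-fold, none was higher and Pglyrp1 was lower (median 0.10). The log2 ratio was -0.06 (95% interval -0.29 to 0.18) for Ear2, 0.23 (0.10 to 0.36) for Gngt2 and 0.15 (-0.04 to 0.35) for Pou2f2. These 3 genes were close to equal in the 2 libraries. The same marker minimum and Ly6c2 limit chose the cells in both, so part of the likeness in mature markers may come from the rule. This was not tested. In the counterparts the list had a median of 0.02, with 13 of 25 genes above 0, 1 at least 2-fold higher and 5 lower. The lower genes included Ear2, at 473 CPM at steady state and 208 CPM at day 7 (-1.19). Fabp4 was at 98.8 and 32.7 (-1.60) and Cd300e at 48.7 and 10.5 (-2.22). The differences between the 2 sets of cells were not tested. Pglyrp1, a bactericidal peptidoglycan-binding protein, was at 982 and 288 CPM in core cells (-1.77, -2.07 to -1.49). Itgal was at 762 and 1346 CPM (0.82, 0.65 to 1.0). The antibody against its protein, CD11a, had medians of 149 and 83 raw counts and 1382 and 1536 per 10000.

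**Figure D3:**
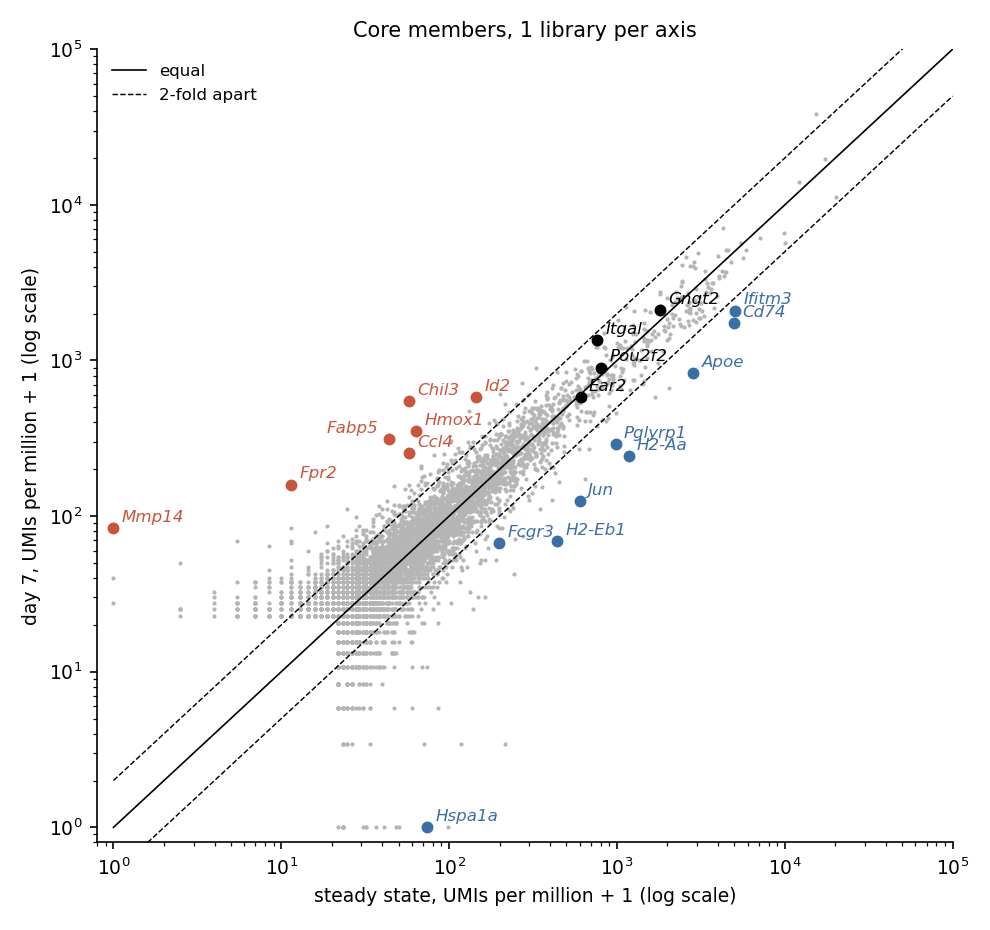
CPM plus 1 in core cells at day 7 against steady state (log scales) for every gene at 20 CPM or more in either library, with lines of equality and of 2-fold difference and 20 genes named. Chil3 and Fpr2 lie above the upper line, H2-Aa and Jun below the lower line, and Ear2 and Gngt2 near equality.

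MHC class II genes were lower at day 7. Of 6 listed genes past the minimum 5 were at least 2-fold lower and none was higher (median -2.09), beside 6.2% of all genes. H2-Aa, an alpha chain of the antigen-presenting complex, was at 1172 CPM at steady state and 241 CPM at day 7 (-2.28, -2.60 to -1.98), and Cd74, the invariant chain that guards its groove, at 5009 and 1736 CPM (-1.53, -1.65 to -1.41). H2-Eb1 was at 440 and 68.3 CPM and H2-Ab1 at 646 and 173 CPM. H2-DMb1, which helps load peptide, was at 162 and 29.3 CPM. The list was also lower in counterparts, in 6 of 7 genes (-2.18), and in Ly6c2-high monocytes, in 5 of 6 (-1.57). The sort gate was set against MHC class II protein in both groups.

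The class II transcripts were unevenly spread over cells. At steady state 18 of 85 core cells (21.2%, 13.1 to 31.4) had at least 50 class II UMIs, and these held 85.9% of the set's class II UMIs. At day 7 it was 6 of 64 cells (9.38%, 3.52 to 19.3) with 53.3%. At steady state 17 of the 18 had 100 UMIs or more, whereas at day 7 1 of the 6 did. With every cell thinned to 3000 UMIs and a minimum of 15, the shares were 25 of 78 (32.1%, 21.9 to 43.6) and 9 of 60 (15%, 7.10 to 26.6). The line of 50 was set after the data were seen, and it divides a range of values. The antibody against the protein was higher in the same cells. Its median, under the name I-A-I-E, was 154 counts in the class II-rich cells at steady state against 4 in the rest, and 26.5 against 1 at day 7. H2-Aa was found in 45.9% and 26.6% of core cells, against 12.8% and 1.89% of Vsig4 macrophages with median depths of 11119 and 8893 UMIs.

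A few class II-rich core cells at steady state also carried dendritic cell transcripts. Of the cDC2 list all 5 genes past the minimum were at least 2-fold higher in them than in the other core cells (median 3.23), beside 8.71% of all genes higher and 9.51% lower (median -0.05). Mgl2, a lectin of these cells, had 14 UMIs in the rich cells and 1 in the rest. Cd209a was at 61.2 CPM against 0 counts, at least 3.23 on the log2 scale. These ratios rest on few cells, since 3 core cells held 100% of the Cd209a UMIs, 3 held 100% of the Mgl2 UMIs and 3 held 92.9% of those of Clec10a. Of the 26 mature markers 25 lay below 0 and 6 were at least 2-fold lower (median -0.66), among them Cd300e at 32.9 against 148 CPM. Ccr2 was at 395 against 154 CPM. At day 7 the 6 rich cells had no Cd209a and no Mgl2 UMI, and of the 26 mature markers 1 was higher and 1 lower in them than in the other core cells (median 0.00), beside 17.9% and 9.73% of all genes. Among the cells under 50 class II UMIs, the class II list did not differ 2-fold between the libraries in any of 6 genes (median -0.32), beside 9.71% of all genes higher and 7.08% lower. The cells were divided by these same transcripts, so both values are descriptions.

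**Figure D4:**
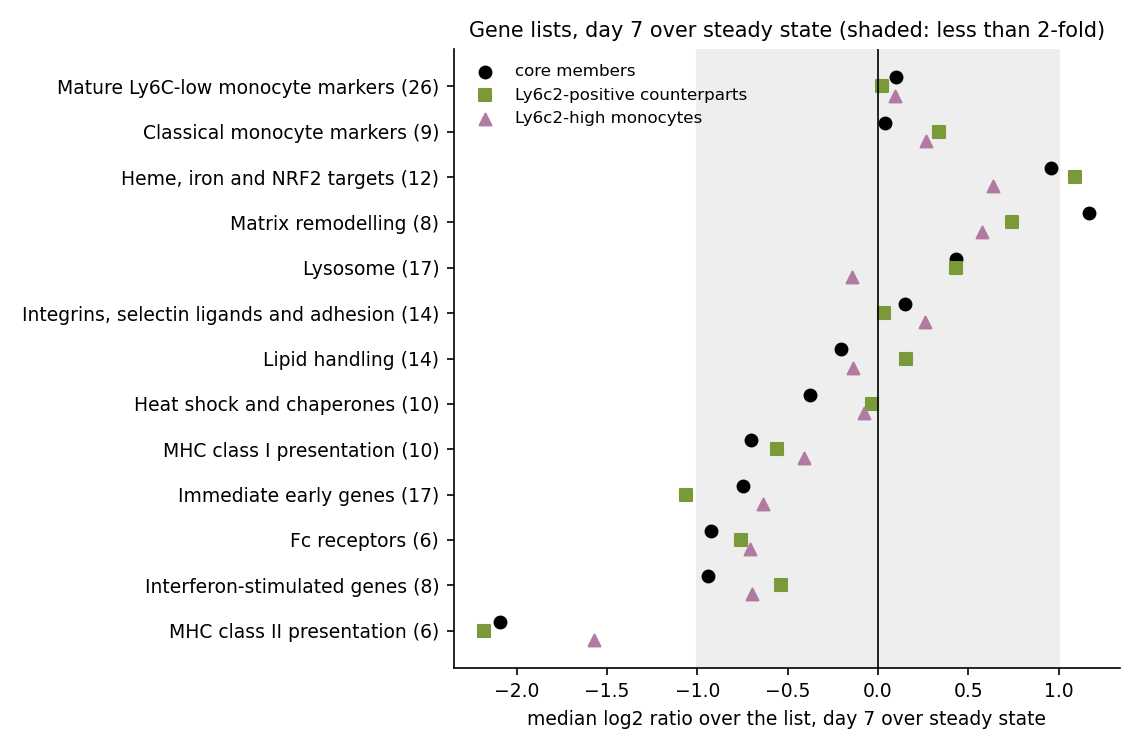
Median log2 ratio of day 7 over steady state for 13 gene lists in core cells, counterparts and Ly6c2-high monocytes, with the number of genes past 20 CPM in core cells in brackets and the range under 2-fold shaded. The class II list lies at -2.09 and the matrix list at 1.17 in core cells, and the mature list at 0.10.

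Sequences before the starts of 3 class II genes are shown because the genes were lower together. Of the 7 listed class II genes 4 have an entry in the RefSeq promoter table (GRCm38.p6). Only 3 of these 4 are printed, so the matches given below describe those 3 windows and not the list. The windows are the 150 bases before the transcription start, on the gene's strand. Capitals mark the Y box GATTGG, the cyclic AMP element TGACGTCA and a stretch shared by 2 of the genes, AACTGATGATGCT, each searched on both strands, with the shared stretch chosen after reading these windows.
H2-Aa, chr17:34287824-34287973, minus strand: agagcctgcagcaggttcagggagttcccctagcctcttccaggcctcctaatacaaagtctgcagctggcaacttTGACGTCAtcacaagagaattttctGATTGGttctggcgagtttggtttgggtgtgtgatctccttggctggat
H2-Eb1, chr17:34305717-34305866, plus strand: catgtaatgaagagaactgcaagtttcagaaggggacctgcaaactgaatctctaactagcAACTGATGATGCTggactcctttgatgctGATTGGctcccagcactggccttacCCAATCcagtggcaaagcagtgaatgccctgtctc
H2-DMb1, chr17:34153041-34153190, plus strand: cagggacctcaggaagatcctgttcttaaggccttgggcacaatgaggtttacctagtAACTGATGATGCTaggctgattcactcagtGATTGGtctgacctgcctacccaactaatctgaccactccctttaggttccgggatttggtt

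A Y box lay 49 to 44 bases before the start of H2-Aa, 60 to 55 before H2-Eb1 and 62 to 57 before H2-DMb1, and H2-Eb1 held another on the opposite strand at 35 to 30. The Y box is the site of the factor NF-Y in the shared class II promoter module. The H2-Aa window had the cyclic AMP element at 74 to 67, and the stretch AACTGATGATGCT lay at 89 to 77 in H2-Eb1 and 92 to 80 in H2-DMb1. Of 32851 windows of this length 10.9% held a Y box, 1.36% the cyclic AMP element and 0.00609% (2 windows) the shared stretch. A match is a description of letters and not evidence of a bound site or of a cause.

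MHC class I genes were lower too. Of 10 listed class I genes 3 were at least 2-fold lower at day 7 and none higher (median -0.70). For this and the 2-fold counts that follow, the shares of all genes were 6.2% lower and 8.06% higher. H2-D1 was at 4820 and 2144 CPM (-1.17, -1.28 to -1.06) and H2-Q7 at 189 and 51.2 CPM, while H2-K1 was at 1999 and 1356 CPM (-0.56) and B2m at 3361 and 3734 CPM (0.15). These H2 genes are related copies, so the split of reads between them is uncertain. H2-D1 was lower also in counterparts (-0.94) and Ly6c2-high monocytes (-1.35). Interferon-stimulated genes were at least 2-fold lower in 3 of 8 and higher in none (median -0.94), among them Ifitm3, a membrane antiviral protein, at 5040 and 2093 CPM (-1.27, -1.38 to -1.16). The Fc receptor list was lower in 3 of 6 (median -0.93), with Fcgr4 at 229 and 107 CPM and Fcgr3 at 198 and 65.9 CPM. Apoe, a lipid carrier protein, was at 2845 and 827 CPM (-1.78), and Cd36 at 428 and 188 CPM (-1.19).

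Immediate early genes, which respond within minutes to stimulation and to tissue dissociation, were lower at day 7 in 6 of 17 and higher in 1 (median -0.75). The shares of all genes were 6.2% lower and 8.06% higher. Jun was at 598 and 124 CPM (-2.27, -2.72 to -1.84; -3.24 over all chosen cells), Fos at 985 and 456 CPM (-1.11; -1.88 over all chosen cells) and Atf3 at 682 and 268 CPM (-1.34). Counterparts were lower in 10 genes (-1.06) and Ly6c2-high monocytes in 4 (-0.63). Heat shock genes were lower in 3 of 10 (median -0.38). Hspa1a, the inducible HSP70, had 49 UMIs at steady state against 0 at day 7, at least 9.95-fold lower (3 counts set for 0), and was found in 18.8% of core cells at steady state. Klf2, a factor of cell quiescence and migration, was at 1455 and 739 CPM (-0.98), and Ets1 had 46 and 4 UMIs (68.3 and 9.76 CPM). Handling of the 2 libraries was not given in the sources used here, and its part in these genes was not tested.

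The window before Hspa1a is shown for the heat shock element it holds, in capitals.
Hspa1a, chr17:34972157-34972306, minus strand: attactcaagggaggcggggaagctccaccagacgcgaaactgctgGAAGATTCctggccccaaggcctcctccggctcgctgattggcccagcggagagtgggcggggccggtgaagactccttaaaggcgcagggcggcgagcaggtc

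The element was searched as GAANNTTC on both strands and lay at 104 to 97 before the start, and 3.95% of all windows held one. The window before Hspa1b differed from it by 1 base. The 2 genes are near-identical, so their counts are uncertain one by one. For Hspa1b the counts were 31 and 2 UMIs. The H2-Aa window also held a match, at 58 to 51, which reads gaattttc. In turn the Hspa1a window held a Y box, at 68 to 63, which is not in capitals, so that motif was not limited to the class II windows.

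Genes of the heme and oxidative stress response were higher at day 7 in 6 of 12 and lower in none (median 0.96), beside 8.06% of all genes. Hmox1, which breaks down heme, was at 62.4 and 351 CPM (2.49, 1.99 to 3.03) and was found in 29.4% and 46.9% of cells, with 34.7% of its day 7 UMIs in 1 cell. Slc7a11, the cystine importer, was at 37.1 and 102 CPM (1.46, 0.72 to 2.24), Txnrd1 at 65.3 and 137 CPM (1.06) and Gclm, of glutathione synthesis, at 8.91 and 31.7 CPM (1.83, 0.34 to 3.51; 0.92 over all chosen cells). Fth1, a ferritin chain, was at 5468 and 5729 CPM (0.07). The same list was higher in 7 of 13 genes in counterparts (1.09) and in 3 of 12 in Ly6c2-high monocytes (0.64), with Hmox1 at 3.15 and 1.41.

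Matrix genes were higher in 5 of 8 and lower in 1 (median 1.17), beside 8.06% and 6.2% of all genes. The list was also higher in counterparts, in 4 of 10 genes with 0 lower (0.74). In Ly6c2-high monocytes 2 of 10 were higher and 0 lower (0.58). Mmp14, a membrane collagenase, had 0 UMIs in 85 steady-state core cells and 34 UMIs at day 7, at least 4.22 on the log2 scale. In the 21 cells set apart Mmp14 was present, so that over all chosen cells the value was 1.08. Thbs1, thrombospondin, was at 131 and 473 CPM (1.86, 1.49 to 2.24), Tgfbi at 293 and 602 CPM (1.04; 0.59 over all chosen cells) and Adam17, the sheddase, at 56.4 and 158 CPM (1.49). Timp2, an inhibitor of matrix proteases, was at 68.3 and 19.5 CPM (-1.81; -4.75 over all chosen cells). Fn1 was at 163 and 300 CPM (0.88), and over all chosen cells at -1.03, the opposite direction. Both Thbs1 and Fn1 rested on few core cells. At steady state and day 7, 3 cells held 51.14% and 51.55% of the Thbs1 UMIs and 70.9% and 62.6% of those of Fn1. C3, a complement component outside the matrix list, was at 80.2 and 246 CPM (1.62), and -0.93 over all chosen cells. Cfb had 0 and 16 UMIs, at least 3.13, and -0.43 over all chosen cells.

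Among genes outside these lists or of the classical list, several were higher at day 7. Chil3, a chitinase-like protein of classical monocytes and neutrophils, was at 56.4 and 549 CPM (3.28, 2.78 to 3.82) and was found in 21.2% and 64.1% of core cells, while it was at 246 and 582 CPM in counterparts (1.24) and 410 and 436 CPM in Ly6c2-high monocytes (0.09). Fpr2, a formyl peptide receptor, was at 10.4 and 158 CPM (3.93, 2.81 to 5.30) and was found in 7.06% and 48.4% of cells. Fabp5, a lipid carrier, was at 43.1 and 310 CPM (2.85), Id2, an inhibitor of helix-loop-helix factors, at 144 and 578 CPM (2.00) and Nr1h3, the LXR alpha receptor, at 14.9 and 78.0 CPM (2.39). Csf2rb, the shared GM-CSF and IL-3 receptor chain, was at 66.8 and 168 CPM (1.33). Fabp5 was at 334 and 169 CPM in Ly6c2-high monocytes (-0.98).

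Some differences at day 7 were shared with cells that should lack the gene. Camp, a neutrophil granule protein, was found in 1.18% of core cells at steady state and 28.1% at day 7, and in 1.48% and 17.0% of Vsig4 macrophages. S100a9 was found in 3.53% and 35.9% of core cells and in 4.43% and 45.3% of macrophages. Macrophages should lack both genes, and the depths were medians of 6846 and 6516.5 UMIs in core cells and 11119 and 8893 in macrophages. The S100a9 share in core cells was below that of macrophages in each library. The Camp share was higher at day 7 in both cell types, and at day 7 it was larger in core cells than in macrophages. Pf4, a macrophage chemokine, was found in 25.9% and 1.56% of core cells and in 22.6% and 4.89% of Ly6c2-high monocytes, beside a Vsig4 macrophage share of 24.8% and 4.38% of filtered cells. The part of free RNA in these values was not tested. Steady-state Cxcl3 and Areg rested on 1 cell each, with 97.0% and 97.9% of their core UMIs, and Il1a likewise with 91.7%.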

How the data were processed

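The deposited matrices, written by Cell Ranger 6.1.2 per the file headers and the submitters' processing notes, gave unnormalised UMI counts of every gene and antibody for each barcode. The notes also name mm10 and Seurat 4.4.0 without saying what Seurat was used for. Values were whole numbers, and no column of another series was used (0 unused columns).

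Barcodes needed 500 RNA UMIs and 200 genes or more, and no more than 10% of UMIs from mitochondrial genes. Of 1912 and 1277 barcodes 1637 and 1210 passed. Scrublet calls were 7 and 10 cells, of which the chosen cells held 2 and 0, and none was removed. Each set's UMIs were added up and scaled to CPM. Genes under 20 CPM in both sets compared were left out. Ratios have a conditional exact Poisson interval and shares a Clopper-Pearson interval, both of 95%. A set with 0 counts was given 3. No p-value was computed, as each group is 1 library. The scripts were tested on simulated counts.

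The cells and the gene lists were chosen with earlier results of these data known. All genes of the 33 lists may be named, and beside them in each comparison the 12 highest and 12 lowest, ranked on the end of the interval closer to equality, without rule genes and without ribosomal, mitochondrial, Gm and Rik genes. The design named isotype controls as antibody background, but none was among the 92 antibodies, so 8 lineage antibodies served, with a median per antibody of 0.5 counts in core cells at steady state and 0.875 at day 7. Python 3.11.15, numpy 2.4.6, scipy 1.17.1, pandas 2.3.3 and scanpy 1.11.5 were used, with matplotlib 3.10.9 for the plots. Alternatives were another marker minimum, a Ly6c2 limit of 1, doublets removed, thinning to 3000 UMIs, other CPM minimums, donor cells alone and antibody counts per 10000.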

Additional observations from a re-analysis of the deposited data

Results flagged for a closer look

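Cd63, a lysosomal tetraspanin, moved in opposite directions in 2 sets of monocytes. In core cells its log2 ratio of day 7 over steady state was 2.04 (95% interval 0.24 to 4.17, CPM 5.94 and 24.4, 4 and 10 UMIs), and in Ly6c2-high monocytes -1.11 (22.5 and 10.4 CPM). In core cells 50% of the day 7 UMIs were in 1 cell, and over all chosen cells the ratio was -3.08. The difference between the sets was not tested.

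Ccl4, a chemokine for monocytes and lymphocytes, had a ratio of 2.17 in core cells (1.62 to 2.74, CPM 56.4 and 254) and -2.56 in Ly6c2-high monocytes (534 and 90.3 CPM). At day 7 36.5% of its core UMIs were in 1 cell and 71.2% in 3 cells. The difference between the sets was not tested.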

How the results depend on the processing

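No paired analysis was possible because each group held 1 library, and for the same reason no library could be left out. Alternatives were compared for the cells as chosen by the rule, and the values not given here are counted at the end. With a marker minimum of 8, the share of filtered cells was 3.91% at steady state and 3.55% at day 7, the donor share at steady state 100%, the count of genes lower than in counterparts at day 7 530, and Sdc4 was at 0.148 on the log2 scale. With a Ly6c2 limit of 1 the day 7 share was 7.03%, and with doublets removed the steady-state donor share was 100%. With cells thinned to 3000 UMIs, 700 genes were lower than in counterparts at steady state, 625 higher and 666 lower at day 7, 930 were higher at day 7 than at steady state, and Il1a was at 0.278. With the rule applied to thinned cells the donor share was 100%, the share of cells 4.72%, 1433 genes were lower than in other cells at steady state, 1780 lower than in counterparts, 636 higher and 1057 lower than in counterparts at day 7, and 906 higher at day 7 than at steady state.

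At a minimum of 10 CPM, 1301 and 1197 genes were lower than in other cells at steady state and day 7, 1152 higher and 447 lower than in counterparts at steady state, 474 and 644 at day 7, and 1256 lower at day 7 than at steady state. At 50 CPM the counts were 444 higher and 446 lower than in other cells at steady state, 305 lower at day 7, 264 and 91 against counterparts at steady state, 102 and 115 at day 7, and 231 higher and 351 lower at day 7 than at steady state. With donor cells alone 416 were lower at day 7, Apod was at 0.637 and CD115 at 1.32. Per 10000 antibody counts Ly6C was at 2.28, CD11b at -0.391 and CD102 at 0.451, the last in the opposite direction. In the core cells, a choice added after seeing the data, the donor share was 100%, the share of cells 5.19%, 199 genes were higher than in counterparts at steady state, 353 lower at day 7 than at steady state, Apod was at 0.301 and CD115 at 1.32. A further 137 values of shares, counts and antibody medians stayed within 1.5 times or within their interval. Of single genes, 431 values stayed within the interval and 97 moved beyond it with no change of sign in a 2-fold difference. The cause of these shifts was not tested, apart from the minimums, which change how many genes are compared. Sdc4, Il1a and Apod had 0 UMIs at day 7, so their positive values come from the 3 counts set for 0 and give no direction.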
